A study of Mus musculus with 2 samples.

Results

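Many mammalian genes are arranged head to head, with their transcription start sites close together on opposite strands, so that the DNA between them serves as the promoter of both. The present account covers such divergent promoters of paired protein-coding genes in mouse cerebral cortex, as seen by DNase-seq. DNase-seq maps accessible chromatin: nuclei are lightly cut with DNase I, the DNA ends are sequenced, and cuts are dense where DNA is not wrapped in nucleosomes. Tissue came from the cerebral cortex, left side, of 2 females of the cross B6CASTF1/J at an age of 2 months, with 1 library per animal, named replicate 1 and replicate 2. The cross is the first generation between the strains C57BL/6J and CAST/EiJ; reads were placed on the C57BL/6J reference, and the alleles were not analysed here. The labels number the females separately but give both libraries the same donor entry, so the spread between libraries is that of 2 samples taken as separate animals. All libraries form 1 group, and no treatment or genotype could be compared.

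A pair was defined from the annotation as 2 protein-coding genes on opposite strands with the 5′ end of the minus-strand gene upstream of that of the plus-strand gene and a gap between the 5′ ends of at most 1 kb. There were 734 such pairs on chromosomes 1 to 19, made of 1448 genes, which is 6.96% of the 20807 protein-coding genes there. A divergent promoter peak was a peak called in both libraries (merged at an overlap of at least 1 bp) whose centre lay within 1 kb of both 5′ ends. This gave 965 peaks of the 78595 shared peaks, or 1.23% of them and 5.80% of the 16652 shared peaks at protein-coding 5′ ends. A single coding promoter, the main comparison, was a shared peak within 1 kb of the 5′ end of exactly 1 protein-coding gene that was head to head with no annotated gene (13793 peaks). A further comparison was with 921 shared peaks at protein-coding genes that were head to head with a noncoding gene. The rule used gene positions and the presence of peaks, and neither signal, footprints nor sequence.

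Peaks carry a signal, which is how high the density of cuts rises there, scaled by the authors to read depth. Within a library all low signal values were whole multiples (to within 0.05) of 1 common unit. If that unit is 1 cut scaled to 1 M cuts, replicate 1 was read to 206 M cuts and replicate 2 to 208 M. In tissue, a signal does not tell whether a site is open in more cells or cut more often in each cell. Cortical identity was checked on marker genes: 18 of 20 excitatory neuron markers had a shared peak within 1 kb of their 5′ end, against 1 of 24 hepatocyte markers and 61.8% of all protein-coding genes. Inhibitory neuron markers had such a peak at 13 of 20 genes, astrocyte markers at 12 of 15, oligodendrocyte markers at 8 of 15 and microglia markers at 3 of 15. Endothelial and pericyte markers had one at 7 of 19 genes, epithelial markers at 7 of 22, and erythroid and lymphoid markers at 4 of 22.

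Divergent promoters are typically rich in CpG dinucleotides and poor in TATA boxes, and they often serve genes of basic cell upkeep such as DNA repair, replication and mitochondrial function. Transcription factors long associated with them include NRF1, the ETS family member GABPA, NF-Y (which binds the CCAAT box) and YY1. A shared promoter may be read in both directions, and its genes can still differ in how much RNA they make, which DNase-seq does not measure.

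The DNA between the 5′ ends is printed for 6 pairs, each as the plus strand of mm10 read from the minus-strand gene to the plus-strand gene. Senp8/Myo9a is shown for its NRF1 match (GCGCA, any base, GCGC), and Fbh1/Ankrd16 and Tepsin/Ndufaf8 because they are among the 6 pairs of highest signal. Mrps12/Sars2 is shown for its repeated CCAAT boxes, Apaf1/Ikbip for a GC box (GGGGCGGGG) and Gtf3c1/D430042O09Rik for a cyclic AMP response element (TGACGTCA). Capitals mark every match, on either strand, to the 15 motifs searched. None of these stretches overlapped an annotated exon.
Senp8/Myo9a, chr9:59750711-59750895: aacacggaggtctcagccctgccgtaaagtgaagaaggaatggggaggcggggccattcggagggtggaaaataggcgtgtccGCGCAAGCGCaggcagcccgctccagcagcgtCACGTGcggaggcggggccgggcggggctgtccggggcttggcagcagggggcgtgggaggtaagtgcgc
Fbh1/Ankrd16, chr2:11777583-11777875: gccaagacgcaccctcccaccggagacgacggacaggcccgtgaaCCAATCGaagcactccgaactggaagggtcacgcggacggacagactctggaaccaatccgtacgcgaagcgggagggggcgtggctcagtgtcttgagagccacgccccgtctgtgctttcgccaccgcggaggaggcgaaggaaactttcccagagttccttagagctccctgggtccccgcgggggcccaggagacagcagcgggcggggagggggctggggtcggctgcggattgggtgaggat
Tepsin/Ndufaf8, chr11:120098732-120098927: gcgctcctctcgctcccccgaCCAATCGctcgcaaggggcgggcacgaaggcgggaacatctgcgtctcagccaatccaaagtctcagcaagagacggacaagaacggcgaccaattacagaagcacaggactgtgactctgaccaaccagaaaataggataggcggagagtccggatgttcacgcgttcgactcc
Mrps12/Sars2, chr7:28741821-28741991: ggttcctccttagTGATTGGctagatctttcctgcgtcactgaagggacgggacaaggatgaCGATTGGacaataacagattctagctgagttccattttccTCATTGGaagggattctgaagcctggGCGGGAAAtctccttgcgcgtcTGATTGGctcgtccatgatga
Apaf1/Ikbip, chr10:91082771-91082939: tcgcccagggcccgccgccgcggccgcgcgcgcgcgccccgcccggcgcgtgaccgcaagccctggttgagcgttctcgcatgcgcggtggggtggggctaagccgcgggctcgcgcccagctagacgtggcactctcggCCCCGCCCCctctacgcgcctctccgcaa
Gtf3c1/D430042O09Rik, chr7:125707781-125707887: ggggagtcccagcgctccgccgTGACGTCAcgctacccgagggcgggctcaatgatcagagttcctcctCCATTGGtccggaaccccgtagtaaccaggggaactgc

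A peak was found in both libraries at nearly all divergent pairs. Of the 734 pairs, 701 (95.5%) had at least 1 shared peak within 1 kb of both 5′ ends, whereas 61.8% of the 20807 protein-coding genes had such a peak within 1 kb of their own 5′ end. Counted by gene in the same way, 1387 of the 1448 paired genes (95.8%) had a shared peak, against 59.2% of the protein-coding genes in no coding pair and 58.1% of those head to head with no gene at all. At 452 pairs there was 1 peak, at 210 there were 2 and at 39 there were 3. Pairs are not fully independent: 20 genes belonged to more than 1 pair, 24 peaks served more than 1 pair, and 74 pairs included a gene model with a Gm number or a Rik name.

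The 5′ ends of the pairs lay close together. The gap between them was 1 bp at the shortest and 987 bp at the longest, with a median of 128 bp and quartiles of 66.25 and 240 bp, and it was at most 100 bp in 41.7% of pairs and at most 300 bp in 82.0%. The share of pairs with a shared peak was 97.1% for gaps up to 100 bp, 95.5% for longer gaps up to 200 bp, 96.9% from there to 300 bp, 95.3% to 500 bp and 86.8% to 1000 bp. How the peak lay over the starts differed between these gap classes. The strongest peak of a pair covered both 5′ ends in 91.2%, 71.7%, 51.6%, 24.6% and 1.69% of pairs of the 5 classes in the same order, the last being 1 of 59 pairs. Median width of these peaks was 240 to 340 bp in every class, which bounds the gap that a peak can cover. Pairs with 2 or 3 peaks made up 29.6% of those with gaps up to 100 bp, and 57.4% and 50.8% of those in the last 2 classes. Over all gaps the centre of the strongest peak lay between the 5′ ends in 57.5% of pairs, inside the minus-strand gene in 154 and inside the plus-strand gene in 144.

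**Figure D1:**
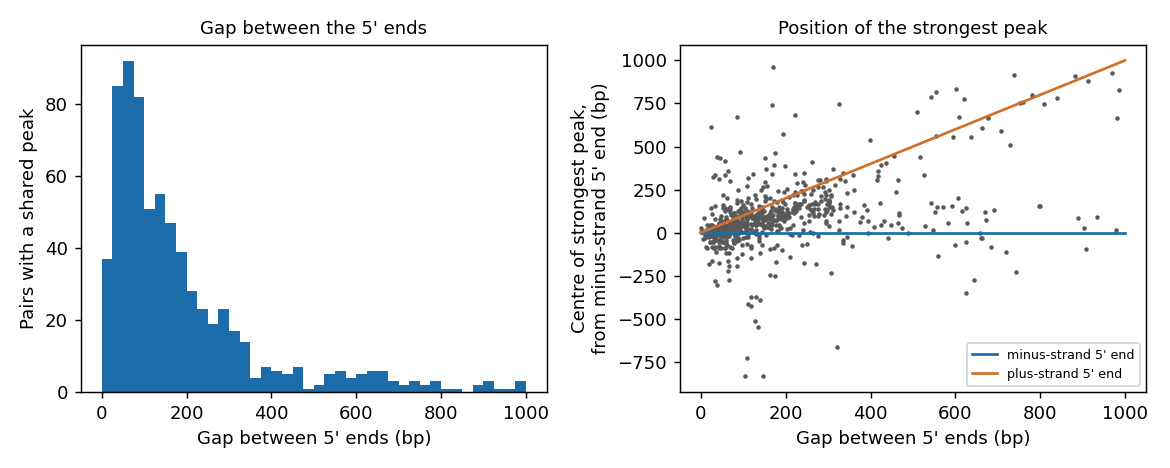
Left, number of the 701 pairs with a shared peak by the gap between their 5′ ends, in bins of 25 bp. Right, the centre of each pair's strongest peak, in bp from the minus-strand 5′ end, against the gap, with lines for both 5′ ends; most gaps are short (median over all 734 pairs 128 bp), and at gaps above 500 bp the centres lie mainly near 1 end or the other.

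The signal of a pair bore no visible relation to its gap. Spearman's rho between the gap and the signal of the strongest peak was -0.0099 in replicate 1 and 0.011 in replicate 2 over the 701 pairs, which share their library and its depth. Median signal was 3.88 and 4.47 for gaps up to 100 bp and 3.59 and 4.33 for gaps above 500 bp. Just outside the rule, 303 pairs whose 5′ ends overlapped by 0 to 500 bp had a shared peak within 1 kb of both ends in 96.4%, with median signals of 3.61 and 3.87. For 44 pairs with gaps above 1000 and up to 1500 bp the share was 20.5%, and for 60 pairs with gaps from there to 2000 bp it was 5%; the room for a centre within 1 kb of both ends shrinks as the gap grows.

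Peaks at divergent promoters were higher than peaks at single promoters in both animals. Their median signal was 3.36 in replicate 1 and 3.76 in replicate 2 (3.56 ± 0.28, SD, n = 2), and that of single coding promoters was 1.86 and 1.84 (1.85 ± 0.01). The ratio of the medians was 1.81 in replicate 1 and 2.04 in replicate 2, a difference of 0.94 ± 0.12 on the log2 scale (SD, n = 2), which was larger than the spread between libraries. The exact sign-flip permutation test over the libraries, two-sided, gave p = 0.5, the smallest value that 2 libraries allow. Promoters of protein-coding genes head to head with a noncoding gene lay between, with medians of 2.66 and 2.80; the divergent coding pairs were 1.26 and 1.34 times as high. All 78595 shared peaks had medians of 0.785 and 0.816. Among divergent promoter peaks, 59.8% and 57.9% lay above the 90th percentile of all shared peaks, a level that 9.98% of shared peaks passed in each library.

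The difference was smaller when 1 peak was taken per promoter and when single promoters with few CpGs were left out. With only the strongest peak of each promoter, the medians were 3.89 and 4.57 over the 682 distinct peaks of pairs, 3.35 and 3.77 at coding genes head to head with noncoding ones, and 2.55 and 2.72 at single promoters, a log2 difference of 0.68 from the last. Against single promoters with at least 18 CpGs in 300 bp, the lower quartile of the divergent windows, the log2 difference over all peaks was 0.49. This minimum was set for single promoters, and CpG numbers were not matched between the classes. The lower tail differed most: the 10th percentile of the strongest peaks was 2.10 and 2.07 at pairs and 0.698 and 0.682 at single promoters, while the 90th percentiles were 5.61 and 7.07 against 4.97 and 6.01. Signals in the libraries followed each other over the 965 divergent peaks (Spearman's rho 0.964, Pearson's r of log2 signal 0.975), and 70.2% were higher in replicate 2, with a median ratio of 1.13; among single promoters 56.7% were higher in replicate 2.

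**Figure D2:**
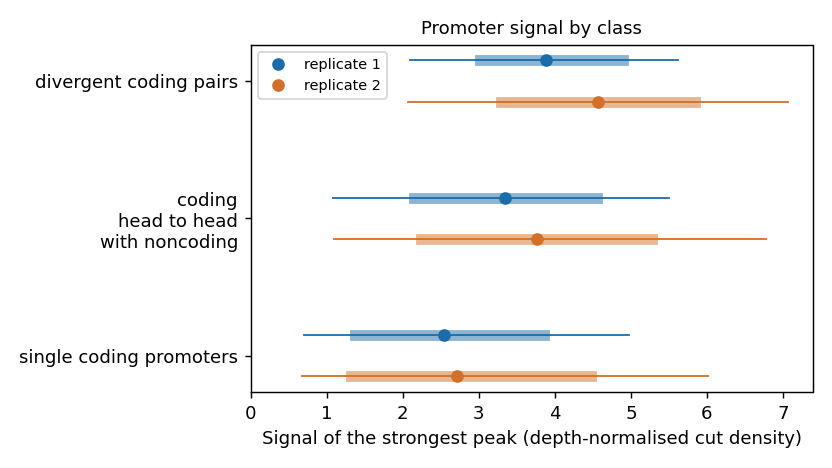
Signal of the strongest peak per promoter (depth-normalised cut density) in each library: points are medians, thick bars span the quartiles and thin lines the 10th to 90th percentiles over promoters. Divergent coding pairs have medians of 3.89 and 4.57 and single coding promoters 2.55 and 2.72, and the 10th percentile is 2.10 and 2.07 at the pairs against 0.698 and 0.682 at single promoters.

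Width and base composition of the divergent promoters were close to those of single promoters. Median peak width was 280 and 260 bp against 299 and 260 bp. In windows of 300 bp centred on the peaks, median GC content was 63.3% and the median number of CpGs was 25, against 64.7% and 24 at single promoters and 52.7% and 6 over all shared peaks. Few windows were ambiguous for read placement: 859 of the 965 peaks held no 31-base word that also occurred elsewhere in the genome, and 3 held more than 50% of such words. The peak of the heat shock genes Hspa1a and Hspa1l, with 74.8% of repeated words, was the most affected of the pairs' strongest peaks.

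Accessible DNA extended to both sides of the pairs. Stretches with a local cut rate at an FDR below 0.05 were read from the authors' cut-rate tables around the midpoint between the 5′ ends of the 701 pairs, and around the 5′ end of 10746 single genes with a shared peak. At 490 bp from that midpoint on the side of the minus-strand gene, 68.4% of pairs were accessible in replicate 1 and 61.2% in replicate 2. At 490 bp from the midpoint on the side of the plus-strand gene it was 69.4% and 59.9%. Single genes were accessible at 490 bp downstream in 72.7% and 65.1%, and at 490 bp upstream in 32.8% and 26.3%. The single genes were thus open mainly on the transcribed side and the pairs on both. The first 1 kb of each paired gene held a median of 530 accessible bp in replicate 1 and 485.5 bp in replicate 2. This was less than the 695 and 621 bp in the first 1 kb of single genes and more than the 376 and 325 bp in the 1 kb upstream of them. Both genes of a pair had at least 200 accessible bp in their first 1 kb in 89.0% of pairs in replicate 1 and 84.2% in replicate 2. The distance scale of pairs starts at a midpoint and that of single genes at a 5′ end, so the 5′ ends of a pair lie on either side of the zero of its scale.

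**Figure D3:**
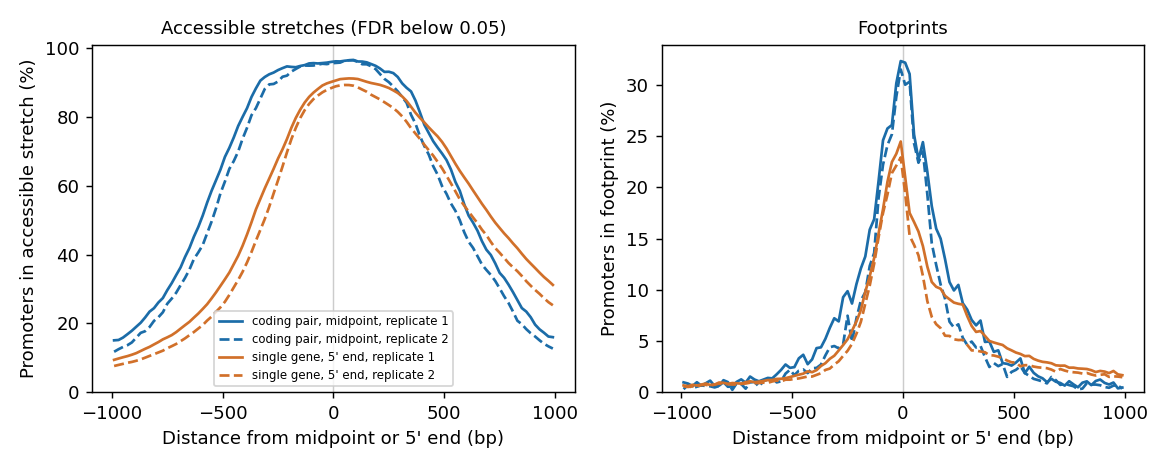
Percent of 701 coding pairs (by distance from the midpoint between their 5′ ends, the plus-strand gene to the right) and of 10746 single genes (by distance from the 5′ end, the gene to the right) lying in an accessible stretch (left) or in a footprint (right), in each library. Pairs are accessible almost equally at 490 bp on either side (68.4% and 69.4% in replicate 1), single genes mainly downstream (32.8% and 72.7%).

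Footprints are short stretches protected from cutting inside accessible DNA, where a protein may be bound. At the pairs they were denser between the 5′ ends than in the 500 bp on either side. Over the 5′ ends and 500 bp on either side, footprints numbered 1.64 and 1.53 per 100 bp between the starts and 0.676 and 0.494 per 100 bp outside them. The stretch between the starts held 30.98% and 36.5% of these footprints in 15.6% of the bp. The flanks were less often accessible than that stretch, and these densities are not per accessible bp. Single genes also had most footprints at the start. There, 24.5% and 22.9% lay in a footprint at -10 bp from the 5′ end. At 490 bp upstream it was 1.60% and 1.30%, and at 490 bp downstream 4.09% and 2.92%. Divergent promoter peaks held a median of 5 footprints in both libraries, and single promoter peaks 5 and 4, a mean difference of 0.5 ± 0.71 (SD, n = 2) that was no larger than the spread between libraries. Per 100 bp of peak there were 1.68 and 1.70 footprints at divergent promoters and 1.31 and 1.28 at single ones. Footprint number went with signal (Spearman's rho 0.463 and 0.536 over the divergent peaks). Among peaks with a signal from 2 to 4 in both libraries, a range chosen after seeing the data, the densities were 1.80 and 1.86 at divergent promoters and 1.81 and 1.81 at single ones. Of the footprints in divergent peaks, 65.2% and 73.0% overlapped a footprint of the other library, against 53.8% and 62.1% in single promoter peaks.

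NRF1, ETS, CCAAT and YY1 words were more frequent at divergent promoters than at single promoters. Each motif was searched as fixed words on both strands of the 300 bp windows, and matches of different motifs were counted separately even where they overlapped. The intervals are 95% Wilson intervals over windows and cover counting error only. The NRF1 word (GCGCA, any base, GCGC) was present in 159 of 965 divergent windows (16.5%, interval 14.3 to 18.9), in 9.55% of windows at coding genes head to head with noncoding ones, in 7.46% of single promoters and in 2.36% of all shared peaks. The ETS word CCGGAAGT was present in 10.4% of divergent windows (8.59 to 12.4), 7.17% at coding genes head to head with noncoding ones (5.67 to 9.02, which overlaps the divergent interval), 5.11% of single promoters and 1.70% of all. The CCAAT box (CCAAT followed by C or G and then by A or G) was present in 26.4% (23.7 to 29.3), 20.6% (18.1 to 23.4), 17.0% and 10.8% of the same classes. The YY1 word AAGATGGC was present in 7.25% (5.78 to 9.07), 3.37% (2.38 to 4.74), 3.76% and 2.39%. The ZNF143 word was found in 10 divergent windows (1.04%), against 0.399% of single promoters and 0.122% of all. Against single promoters with at least 18 CpGs the shares were 10.2% for NRF1, 6.39% for ETS, 18.1% for CCAAT and 4.49% for YY1, each below the divergent interval.

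For the GC box, E-box, E2F and RFX words, the share of single promoters lay inside the divergent interval. For the TGACGTCA, CTCF and AP-1 words it lay outside. The SP and KLF family's GGGGCGGGG was in 20% of divergent windows (17.6 to 22.6), 17.99% of single ones and 23.3% of single ones with at least 18 CpGs, above the divergent interval. The E-box CACGTG was in 10.4% of divergent windows, 8.997% of single ones and 6.76% of all. E2F words (TTTCCCGC or TTTGGCGC) were in 3.63% of divergent and 2.81% of single windows, and the RFX word in 0.933% and 0.624%. The cyclic AMP response element TGACGTCA, read by CREB and ATF proteins, was in 4.35% (3.24 to 5.83) against 2.70%, which is below that interval. Among single promoters with at least 18 CpGs it was in 3.23%, just below the interval. Words frequent at shared peaks as a whole were scarce at both kinds of promoter. A CTCF core word was in 2.69% of divergent windows (1.85 to 3.92), 4.26% of single ones and 11.2% of all shared peaks. The AP-1 word TGACTCA was in 1.97% (1.26 to 3.05), 3.10% and 9.64%, the single promoters lying above the divergent interval for both words. Single promoters with at least 18 CpGs lay inside that interval for both, at 3.28% for CTCF and 1.91% for AP-1. The neurogenic factor word ACAGATGG was in 0.725% of divergent windows, 0.870% of single ones and 3.48% of all. The MEF2 word was in none of the 965 divergent windows, which allows a share of up to 0.397% by the Wilson interval, and in 0.204% of all. Any of the 15 motifs was present in 70.3% of divergent and 55.7% of single windows.

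**Figure D4:**
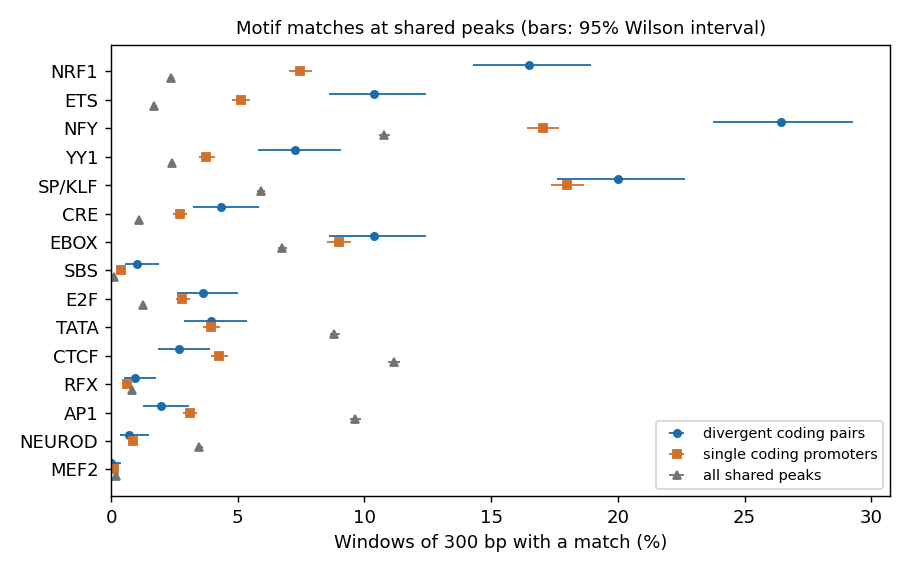
Percent of 300 bp windows with at least 1 match to each of 15 motifs (E-box as EBOX, the ZNF143 word as SBS) at 965 divergent coding promoter peaks, 13793 single coding promoter peaks and all 78595 shared peaks, with 95% Wilson intervals. NRF1 (16.5% against 7.46%), ETS, NFY and YY1 lie to the right of the single promoters, and SP/KLF overlaps them.

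In both libraries, median signal was higher at divergent peaks with than without the NRF1, ETS, CCAAT, YY1, GC box, cyclic AMP response element, E-box, E2F, CTCF or RFX word. The difference was small for the E-box (3.45 and 3.87 against 3.35 and 3.73). It was also small for the CTCF word (26 peaks, 3.53 and 3.89 against 3.36 and 3.76). The RFX word was in only 9 peaks (3.45 and 4.51 against 3.36 and 3.76). Peaks with an NRF1 word had medians of 4.21 and 4.70 against 3.18 and 3.43 without. With a CCAAT box they were 3.87 and 4.74 against 3.14 and 3.39, and with TGACGTCA 4.63 and 5.46 against 3.33 and 3.70. With the YY1 word they were 3.99 and 4.83 against 3.33 and 3.63, and with the ETS word 3.59 and 4.44 against 3.34 and 3.64. The 38 peaks with the TATAAA word were lower, at 2.24 and 2.46 against 3.39 and 3.79. So were the 19 with the AP-1 word, at 2.24 and 2.24 against 3.38 and 3.77. The 10 with the ZNF143 word were also lower, at 2.83 and 2.72 against 3.36 and 3.77. No test was made over peaks, since they are not replicates.

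Footprints lay over some of these words far more than over others. In replicates 1 and 2, footprints covered 22.1% and 19.7% of the bp of the divergent peaks. The centre of an NRF1 match lay in a footprint in 82.1% and 80.5% of 251 matches, that of TGACGTCA in 80.4% and 89.1% of 46, and that of the GC box in 73.1% and 68.1% of its matches. CCAAT boxes were covered in 25.9% and 25.5% of 432 matches, close to the share of bp, and ETS words in 35.3% and 45.4% of 119. YY1 words were covered in 32.6% and 33.7% of 92, and AP-1 words in 7.69% and 3.85% of 26. At single promoters NRF1 words were covered in 83.2% in replicate 1 and CCAAT boxes in 20.5%. In the printed stretches, the NRF1 match of Senp8/Myo9a was under a footprint in neither library, while the nearby E-box was covered in both. The CCAAT boxes at Tepsin/Ndufaf8 and at Gtf3c1/D430042O09Rik were covered in neither library. TGACGTCA at Gtf3c1/D430042O09Rik, the GC box at Apaf1/Ikbip and the CCAAT box at Fbh1/Ankrd16 were covered in both.

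The words also differed in where they sat relative to the starts. The stretches between the 5′ ends made up 15.6% of the bp searched (the gap and 500 bp on either side) and held 57.3% of CCAAT boxes, 52.1% of TGACGTCA matches, 48.8% of GC boxes, 41.5% of NRF1 words and 38.1% of ETS words. They held 10% of YY1 words. Of 127 YY1 words assigned to a paired gene, 114 lay downstream of its 5′ end, where most of the bp searched lay. At single genes 647 of 949 YY1 words lay downstream. Of the 66 in the first 100 bp of paired genes, 83.3% read AAGATGGC in the direction of that gene. At single genes 80.5% of 343 YY1 words in the first 100 bp did so, so this orientation was common to both kinds of gene. A TATAAA word 20 to 40 bp upstream of a 5′ end was found at 2 of 1383 paired genes, Foxa3 and the histone gene Hist1h2bg (0.145%, interval 0.0397 to 0.526), and at 106 of 10746 single genes (0.986%, interval 0.816 to 1.19). At gaps below 40 bp this stretch reaches into the partner gene. In the 300 bp windows, TATAAA was in 3.94% of divergent peaks, 3.95% of single ones and 8.82% of all shared peaks. Among single ones with at least 18 CpGs it was in 2.65%.

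The pair with the highest signal was Hjurp/Trpm8 on chromosome 1 (peak 88277521 to 88277760, gap 28 bp). Hjurp loads the centromeric histone variant and Trpm8 is a cold-sensing cation channel. Its signal was 15.3 in replicate 1 and 21.2 in replicate 2 (18.3 ± 4.21, SD, n = 2), above every other pair in each library. It was followed by Fbh1/Ankrd16 (7.59 and 10.5; Fbh1 is a DNA helicase) and Tepsin/Ndufaf8 (7.25 and 9.44; an adaptor protein of the trans-Golgi network and an assembly factor of respiratory complex I). Cdc27/Myl4 had 7.54 and 8.45 (a subunit of the anaphase-promoting complex and a myosin light chain of atrial and embryonic muscle). These 4 pairs were all higher in replicate 2.

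The pair with the lowest signal was Kctd19/Lrrc36, with 0.368 and 0.298; Kctd19 acts in meiosis. Nisch/Sema3g had 0.407 and 0.557 and Pcdh12/Rnf14 had 0.504 and 0.475, with a semaphorin and a protocadherin of vessels in them. Sox6/1110004F10Rik had 0.441 and 0.639, Col4a4/Col4a3, the basement membrane collagens of the kidney filter, 0.567 and 0.514, and Gm10447/Shroom1 0.698 and 0.543. These peaks were not all central: those of Nisch/Sema3g and Sox6/1110004F10Rik were centred 878 and 834.5 bp from the minus-strand 5′ end, and that of Pcdh12/Rnf14 548 bp inside Pcdh12. A low peak did not always go with little accessible DNA. The first 1 kb of 1110004F10Rik held 1000 accessible bp in both libraries, and that of Sox6 held 516 and 146. Among the genes of the other lowest pairs the most was 355 bp, in Shroom1 in replicate 1.

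Of 32 gene combinations listed as textbook bidirectional pairs, 9 were head to head by the rule, and all 9 had a shared peak. Among them, signals of the strongest peak were 6.31 and 7.60 at Mrpl49/Fau (a mitochondrial and a cytosolic ribosomal protein gene, gap 59 bp) and 6.17 and 7.62 at Atm/Npat (the DNA damage kinase and a coactivator of histone genes, gap 307 bp). Mcm4/Prkdc, a replicative helicase subunit and the catalytic subunit of DNA-dependent protein kinase, had 5.01 and 6.46 (gap 466 bp). Pdcd10/Serpini1, a gene of vessel integrity and neuroserpin, had 4.77 and 5.26 (gap 691 bp), and Brca1/Nbr1, a repair gene and an autophagy receptor, 3.83 and 4.25 (gap 194 bp). Mrps12/Sars2, a mitochondrial ribosomal protein and the mitochondrial seryl-tRNA synthetase, had 5.07 and 4.70. It was the only one of these pairs with a higher signal in replicate 1.

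In several of these the strongest peak was not between the starts. At Wrap53/Trp53 (4.91 and 6.04, gap 104 bp, 3 peaks) it was centred 834.5 bp inside Wrap53, a telomerase and Cajal body protein gene, and at Gart/Son (4.22 and 4.90, gap 554 bp) 264.5 bp inside Son, a splicing cofactor gene. At Mrps12/Sars2 it was centred 218.5 bp inside Sars2, from 28742101 to 28742320, so it did not cover the 4 CCAAT boxes printed for that pair; none of the 4 lay in a footprint, while the E2F word beside them did in both libraries. At Brca1/Nbr1 it reached from 101552101 to 101552960, mostly inside Nbr1, with 18 footprints in replicate 1 and 11 in replicate 2. A further 7 textbook pairs had 5′ ends that overlapped by 21 to 341 bp in the annotation and so fell outside the rule; each had a shared peak, from Surf1/Surf2 (2.11 and 2.53) to Hspd1/Hspe1, the mitochondrial chaperonin genes (5.04 and 6.68). The remaining combinations were farther apart (11) or on the same strand (5).

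**Figure D5:**
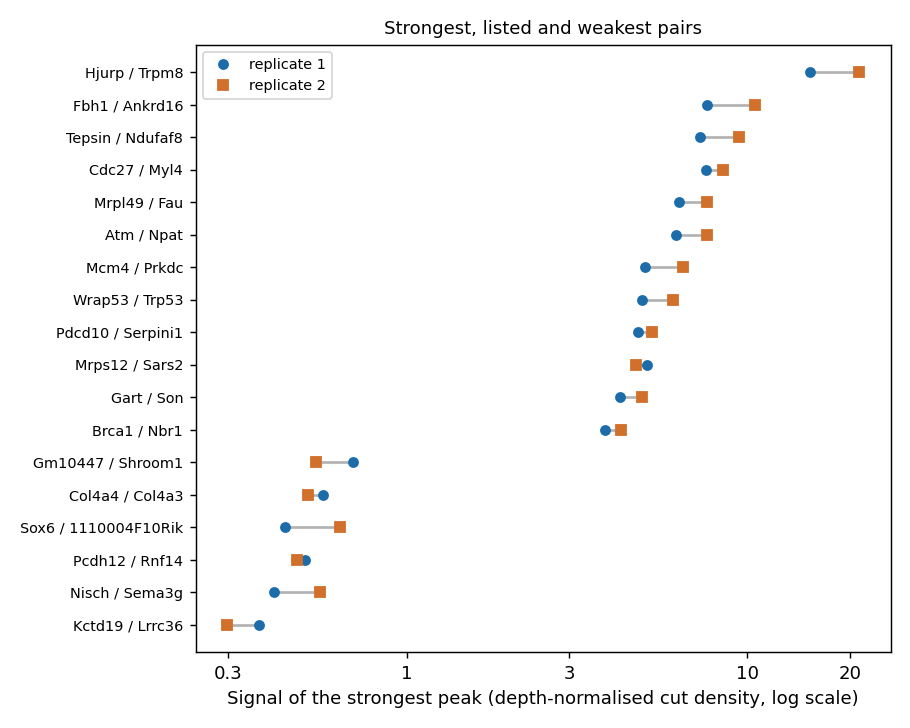
Signal of the strongest peak (log scale) in replicate 1 (circles) and replicate 2 (squares) for 4 of the 6 pairs of highest mean signal, 8 of the 9 textbook pairs and the 6 pairs of lowest mean signal. Hjurp/Trpm8 (15.3 and 21.2) stands above the rest, the textbook pairs lie from 3.83 to 7.62, and the lowest pairs lie below 0.7.

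DNA repair genes were often arranged in divergent pairs. Of 119 repair genes, 38 (31.9%) were in a coding pair, against 6.96% of all protein-coding genes; this is a property of the annotation and not of the libraries. Their 41 pairs all had a shared peak, close to the 95.5% of all 734 pairs, with median signals of 4.16 and 5.09 against 3.89 and 4.57 over all 701 pairs. The highest were Lig4/Abhd13 (6.99 and 8.34; DNA ligase IV of end joining), Atm/Npat and Recql/Golt1b (6.04 and 7.60; a RecQ helicase). The lowest was Rad54l/Pomgnt1 (1.21 and 1.64).

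Replication and cell cycle genes were in pairs at 22 of 105 genes (6.96% of all protein-coding genes were), and all 22 pairs had a peak, near the share over all pairs, with medians of 4.06 and 4.84. After Cdc27/Myl4 the highest were Cenpp/Nol8 (5.76 and 8.14; a centromere protein and a nucleolar protein) and Abce1/Anapc10 (6.20 and 7.03; a ribosome recycling factor and a subunit of the anaphase-promoting complex). The centriole gene pair Cenpj/Parp4 was lowest at 0.872 and 0.855. Over all 701 pairs the medians were 3.89 and 4.57.

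Mitochondrial genes were also common. Of 78 mitochondrial ribosomal protein genes 18 were in pairs, as were 23 genes of oxidative phosphorylation (22.8% of those listed), against 6.96% of all protein-coding genes. All 18 and all 23 pairs had a peak, again near the 95.5% of all pairs. Median signals were 3.99 and 4.60 for the first and 4.10 and 4.82 for the second. The highest mitochondrial ribosomal pairs were Ptcd2/Mrps27 (6.48 and 8.12), Klc4/Mrpl2 (5.92 and 8.40) and Mrpl49/Fau. After Tepsin/Ndufaf8, the highest of the respiratory chain were Esf1/Ndufaf5 (5.91 and 7.53; another complex I assembly factor) and Ndufa8/Morn5 (5.46 and 7.36; a complex I subunit). The lowest respiratory pair was Ndufa5/Asb15 (2.88 and 3.01), and the lowest mitochondrial ribosomal pair was Lrrc46/Mrpl10 (2.12 and 2.45).

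Ribosomal, proteasomal and tRNA synthetase genes contributed fewer pairs, and the proteasomal and synthetase lists are short (49 and 34 genes). Their paired shares were 10.1%, 14.3% and 14.7%, against 6.96% of all protein-coding genes. Of all 734 pairs, 95.5% had a shared peak. Cytosolic ribosomal protein genes were in pairs at 8 of 79 genes, and 7 of the 8 pairs had a peak, with medians of 3.80 and 3.70; the highest were Med22/Rpl7a (6.75 and 8.99), Rpl9/Lias (6.79 and 7.65) and Rps28/Ndufa7 (5.32 and 5.63). Proteasome genes were in 7 pairs, all with a peak (medians 3.46 and 3.602), led by Ftsj3/Psmc5 (6.404 and 6.01), Psmb1/Tbp (4.56 and 5.85) and Mrpl32/Psma2 (4.31 and 5.70). The 5 tRNA synthetase pairs all had a peak (medians 3.95 and 4.70); Mrps12/Sars2 and Orc3/Rars2 (3.95 and 4.93) were among the highest, each with a mitochondrial synthetase.

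Histone gene pairs had lower median signals than all pairs together. Of 67 histone genes 27 (40.3%) were in 14 pairs, against 6.96% of all protein-coding genes. These pairs were mostly an H2A and an H2B gene of the chromosome 13 cluster. A shared peak was present at 11 of the 14, against 95.5% of all 734 pairs. Median signals were 1.94 and 1.79, and the highest pair, Hist1h2bf/Hist1h2ad, had 2.30 and 2.59, below the overall medians of 3.89 and 4.57. Bola1/Hist2h2ab (2.35 and 1.85) and Hist1h2an/Hist1h2bp (2.05 and 2.08) followed. Histone genes are near-identical copies, and between 4.05% and 50% of the 31-base words in the strongest peaks of these 11 pairs also occurred elsewhere in the genome, against a median of 0% over all divergent peaks. The part of read placement in the lower signal was not tested.

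Family names taken as lists showed levels near those of all pairs. Over all protein-coding genes 6.96% were in pairs, and 95.5% of all pairs had a shared peak. Zinc finger genes (named Zfp or Zbtb) were in pairs at 26 of 455 genes, with a peak at 22 of 23 pairs (medians 3.98 and 4.45); Zfp654/Cggbp1 (5.52 and 8.53), Zfp277/Dock4 (4.89 and 5.81) and Ccdc92/Zfp664 (4.71 and 5.96) were highest. Solute carriers were in pairs at 17 of 358 genes, with a peak at 15 of 16 pairs (3.77 and 4.02), led by Slc39a7/Rxrb (5.12 and 7.002), Slc7a6os/Prmt7 (5.12 and 6.18) and Cdk5/Slc4a2 (4.69 and 5.95). Slc7a6os entered this list by its name alone. Coiled-coil Ccdc genes were in 20 pairs, all with a peak (3.79 and 3.93), led by Ccdc151/Prkcsh (4.66 and 6.49), Sdha/Ccdc127 (5.40 and 5.57) and Tada2b/Ccdc96 (5.19 and 5.50). Transmembrane Tmem genes were in 23 pairs, 21 of them with a peak (4.20 and 4.56), led by Deaf1/Tmem80 (6.84 and 7.38), Tmem209/Ssmem1 (5.16 and 7.42) and Tmem126b/Dlg2 (5.02 and 7.29), the last holding a postsynaptic scaffold gene. None of 1128 olfactory receptor genes was in a pair.

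Listed marker genes of cortical cell types were in coding pairs at no more than 2 genes per list. None of the 20 excitatory neuron, 20 inhibitory neuron, 15 astrocyte, 15 microglia and 21 immediate early genes listed was in one, against 6.96% of all protein-coding genes. Of 15 oligodendrocyte markers 1 was in a pair (6.67%), and of 19 endothelial and pericyte markers 2 (10.5%). These shares were near or above that of all genes. Each list is short, so any 1 list without a paired gene says little beside 6.96%. Of 40 synaptic genes 1 (2.5%) was in a pair. This was Nlgn2, a neuroligin of inhibitory synapses, with Tmem256 (3.66 and 4.02). None of the hepatocyte, epithelial or blood cell markers was in a pair. Among markers of other tissues, 3 of 22 muscle genes (13.6%) were in pairs. They were Actn3 (with Zdhhc24, 3.98 and 5.99), Mylpf (with Tbc1d10b, 2.83 and 3.14) and Ckm (with Klc3, 0.630 and 0.744). All 3 pairs had a peak, beside 95.5% of all pairs. The first 1 kb of Actn3 held 0 accessible bp in both libraries, and that of Zdhhc24 held 536 and 508. Ckm had 326 and 318 such bp and Klc3 0 and 108. Mylpf had 674 and 642 and Tbc1d10b 333 and 331. Of germline genes, the 4 pairs with a peak were Rad51c/Tex14 (4.20 and 6.20), Smc1b/Ribc2 (1.78 and 2.04) and Stag3 with Gpc2 or Gm43720 (1.08 and 1.30 for both). Of 30 germline genes 7 (23.3%) had a shared peak at the 5′ end, against 61.8% of all protein-coding genes. The paired ones were 3 of these 7. The pairs of Pecam1, an endothelial marker, with Milr1 and of Cspg4, a marker of pericytes and oligodendrocyte precursors, with Odf3l1 had no shared peak.

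The extremes of gap and footprint number showed no single pattern. The shortest gaps were 1 bp at Bag4/Lsm1 (a chaperone regulator and an mRNA decay factor; 5.67 and 6.07) and at Slc7a6os/Prmt7, and 3 bp at Dhrs1/Nop9 (2.71 and 3.41). The longest were 987 bp at Btf3l4/Txndc12 (1.37 and 1.39), 981 bp at Asphd1/Sez6l2 (2.11 and 2.44) and 978 bp at Zfyve26/Rad51b (2.88 and 3.39). The most footprints were at Ddx5/Cep95 (19 in replicate 1 and 18 in replicate 2; Ddx5 is an RNA helicase), Cdca2/Kctd9 (19 and 17), Zfp91/Lpxn (16 and 15) and Nlgn2/Tmem256 (14 and 16). Each of these 4 had a peak far wider than the median of 280 bp, from 700 to 1180 bp in replicate 1.

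The libraries differed most, after centring on their median ratio, at Nr2e1/Ostm1, where Nr2e1 is a nuclear receptor of neural stem cells. Its signal was 1.32 in replicate 1 and 0.840 in replicate 2, a centred log2 ratio of -0.75. Bysl/Med20 and Bysl/Gm20517, which share a peak, had 3.79 and 6.39 (centred ratio 0.66), and Timm9/2700049A03Rik had 2.28 and 1.56 (-0.64). Of the divergent peaks, 99.8% lay within 2-fold between libraries after centring.

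At the 33 pairs without a shared peak, a peak lay within 1 kb of both ends in replicate 1 alone at 2 pairs, in replicate 2 alone at 3 and in neither at 28. They included Patl2/Terb2, Lypd4/Dmrtc2, Dgcr2/Tssk2 and Nmur1/Tex44, 3 pairs of histone genes, Duox2/Duoxa2 of the thyroid, and Ifit1bl2/Ifit1 of the interferon response. They also included pairs with a widely used gene (Trim28, paired with Slc27a5, and Ccnt1), Stap2/Mpnd, and the brain genes Sncg and Aspa, the latter in 2 pairs. These were named after their values were seen. Some had peaks nearby that the rule did not take. Smim7/Tmem38a (gap 967 bp) had shared peaks centred 77.5 bp from the start of Smim7 and 65.5 bp from that of Tmem38a, but none within 1 kb of both. Rps2, a ribosomal protein gene, paired with Rnf151, had its nearest shared peak 1894.5 bp from the annotated 5′ end.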

How the data were processed

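DNase-seq peaks, footprints and cut rates of 2 libraries of 1 group were used. Alignment was to mm10, per the labels; which programs aligned reads and called peaks or footprints is not given in the sources used here. The authors called peaks separately per library, in a larger list (every peak holds a position with an FDR below 0.05 in the cut-rate table of its library) and a smaller one (below 0.001), with a signal that the authors scaled to read depth. Footprints were called by the authors at an FDR given as a fraction, 0.01 throughout. The deposited cut-rate tables give FDR values, that is q-values, of the local cut rate below 0.05.

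Genes came from GENCODE M21 and sequence from GRCm38.p6, the build of the files, with the outermost 5′ end of each gene; coordinates are 1-based. Peaks of the larger lists were merged on chromosomes 1 to 19, and overlaps, windows, motif matches and medians were computed in Python 3.11.15 with NumPy 2.4.6, SciPy 1.17.1 and pandas 2.3.3. Finding pairs and their shared peaks was tested on simulated positions. Medians were compared within each library, and the difference was tested over libraries with a two-sided exact sign-flip permutation test; peaks and genes are not replicates and got no test. Words of the NRF1, ZNF143, CTCF, RFX and MEF2 motifs have 10 or more letters, and the others are spelled out where first used; all are fixed words and miss weaker sites.

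Named pairs are the head-to-head textbook pairs, the 6 of highest and of lowest signal, the 3 of shortest and of longest gap, the 4 with most footprints, those with a gene of a cell type, synaptic, immediate early or other-tissue list, the 3 that differ most between libraries, and the 3 of highest signal per functional list; a few of these are not reported here. Members, lists and motifs were chosen with earlier results of these data known. The 26 gene lists were matched to 20807 protein-coding genes by symbol or prefix. Alternatives are given in the closing section. Sex chromosomes were left out by the rule.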

Additional observations from a re-analysis of the deposited data

How the results depend on the processing

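The higher signal of divergent promoters kept its direction under every alternative run, while its size moved. The log2 difference of medians from single promoters, 0.94 as reported, was 0.70 with the smaller peak lists. It was 0.78 when the overlap had to cover at least 50% of each peak and 0.72 with the peak centre within 500 bp. With the strongest peak per promoter it was 0.68. It was 0.49 against single promoters with at least 18 CpGs and 0.38 against coding genes head to head with noncoding ones. It was 0.73 over promoters with 1 peak and 0.95 without gene models named Gm or Rik, both chosen after seeing the data. With the peaks of 1 library alone it ranged from 1.15 to 1.32. The cause of these shifts was not tested. The percent of pairs with a shared peak, 95.5, was 90.6 at the 50% overlap and 88.3 with the centre within 500 bp, where fewer peaks can qualify; with 1 library alone it was 95.8 and 95.9. The number of divergent peaks ranged from 708 (centre within 500 bp) to 1171 (replicate 2 alone). The width difference changed sign, from -9.5 bp to 9.25 bp with the smaller lists, so no direction is claimed for width. Any of the motifs was found in 54.0% of windows of 150 bp, and in 65.8% to 66.3% with the peaks of 1 library alone, against 70.3%. Of the shares of single motifs, 12 alternative values moved by more than the wider arm of the 95% interval of the reported value and 63 did not, 11.9% for NRF1 in windows of 150 bp and 34.8% for the CCAAT box between the 5′ ends being among the 12. No paired analysis was possible because all libraries belong to 1 group, so no samples of different groups could be paired; classes of peaks were compared within each library. The difference in footprints per peak lay between 0 and 1 under the alternatives. Depth limits the weakest peaks and footprints, and 2 libraries cannot give a p below 0.5.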
